A study of Mus musculus with 16 samples.

Results

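The genotype effect in stimulated neutrophils was read from 9 of the 16 libraries of the series, the 5 LTβRΔN libraries and the 4 control libraries whose names and labels mark them as stimulated. Bulk RNA-Seq had been run on neutrophils enriched from mouse blood, and the deposited table gave read counts for 23337 gene symbols. LTβRΔN mice carried Ltbr fl/fl alleles and the Mrp8-Cre transgene, and controls carried the same Ltbr fl/fl alleles without Cre. All animals were 8 weeks old, of the C57/Bl6 strain by label. Blood neutrophils had been purified by magnetic depletion of other cells. The treatment protocol names a 2 h culture in 100 ng/ml each of TNF and GM-CSF plus 50 ng/ml of IL-6, to which 500 ng/ml of LIGHT was or was not added. No label says whether an individual stimulated library had received LIGHT, so this cannot be read from the group name. Mrp8-Cre also drives GFP and acts in cells that express S100a8, and every LTβRΔN library carried it while no control did, so loss of the receptor and presence of the transgene cannot be told apart. The labels do not say that each library came from its own animal, so p-values measure the spread between these libraries.

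The lymphotoxin β receptor binds the ligands LIGHT and membrane lymphotoxin and signals through TRAF proteins to the alternative and the classical NF-κB pathway. In neutrophils, short-lived cells that carry preformed granules, TNF, GM-CSF and IL-6 act through other receptors that reach classical NF-κB and JAK-STAT signalling. A comparison of genotypes after stimulation asks whether neutrophils without the receptor hold different transcripts once those cytokines have acted.

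Stimulated LTβRΔN and control neutrophils differed in 2 genes of 9213 tested. Ltbr, the receptor gene itself, was 13.2-fold lower in LTβRΔN neutrophils, and Ap1s1, the small σ1A subunit of the AP-1 clathrin adaptor, was 9.51-fold higher. Calls were made with edgeR's quasi-likelihood test at an adjusted p-value below 0.05, so 0.0217% of all tested genes were called, 0.0109% higher and 0.0109% lower. The third smallest adjusted p-value was 0.337. For the 4141 genes with a mean of at least 20 CPM (counts scaled to a common library total with TMM factors) in the 9 libraries, called well-counted from here on, the data held most differences to less than 2-fold.

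Totals of the stimulated control libraries lay between 4437039 and 11023928 counts (median 8255788). LTβRΔN libraries were shallower, with 1506153 to 8575222 counts (median 2408608), and depth therefore differed along with genotype. Of 11 neutrophil markers tested, among them S100a8, Csf3r and Cxcr2, 0 had an unadjusted edgeR p below 0.05, and their summed level was 57284 to 72600 CPM in control and 53994 to 78422 CPM in LTβRΔN libraries. Elane, Mpo and Ctsg of neutrophil precursors, Ccr2 and Cx3cr1 of monocytes and all 8 NK cell markers had 0 counts in all 9 libraries. Other members of these lists were counted. Csf1r (224 to 364 CPM), Ly6c2 (92.1 to 158 CPM) and Ctss (60.7 to 97.8 CPM) of monocytes were counted in all 9 libraries. Of the precursor markers, Mki67 (5.82 to 16.9 CPM) was counted in all 9 and Prtn3 (at most 11.6 CPM) in 7. Ly6g was not among the symbols of the table used here. Summed markers of B cells (0 to 4.16 CPM in control, 0 to 0.449 CPM in LTβRΔN libraries), T cells (7.37 to 17.6 and 5.82 to 14.4 CPM), eosinophils (48.4 to 108 and 38.4 to 88.1 CPM), erythroid cells (32.7 to 61.2 and 23.3 to 67.0 CPM), dendritic cells (24.7 to 53.4 and 24.2 to 44.1 CPM) and monocytes (2169 to 2685 and 2238 to 2960 CPM, mostly Nr4a1) overlapped between genotypes. All 9 libraries carried one shared index label, so no batch named by the labels splits them.

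Ltbr, on chromosome 6 of GRCm38 from 125306571 to 125313885 on the minus strand, had 97.0, 105, 84.6 and 148 CPM in the 4 control libraries. The 5 LTβRΔN libraries had 18.1, 3.71, 0.705, 10.3 and 10.5 CPM, and the groups did not overlap. The mean level was 109 ± 27.7 CPM (SD, n = 4) in control and 8.65 ± 6.75 CPM (SD, n = 5) in LTβRΔN neutrophils, which gave -3.72 on the log2 scale (standard error 0.417, edgeR adjusted p = 3.83e-05). The deleted gene therefore followed the labels in all 9 libraries. An exact two-sided permutation test over the 9 libraries gave p = 0.00794, the smallest value that 5 against 4 libraries allow, for Ltbr and likewise for Ap1s1. That value restates the lack of overlap between the groups for each gene and is no separate support. Replicate 3 of LTβRΔN held 1 count of Ltbr and replicates 1, 2, 4 and 5 held 23 to 30 counts, so transcripts or read pieces of the gene were still counted in the group.

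Ap1s1 lies on chromosome 5 of GRCm38 from 137034993 to 137046135 on the minus strand. Its protein helps the AP-1 complex to bind cargo and clathrin at the trans-Golgi network and endosomes. Control libraries had 8.11, 14, 19.2 and 15.4 CPM. LTβRΔN libraries had 154, 141, 113, 144 and 124 CPM, each above every control library. The means were 14.2 ± 4.61 CPM (SD, n = 4) and 135 ± 16.3 CPM (SD, n = 5), which gave 3.25 on the log2 scale (standard error 0.235, edgeR adjusted p = 1.95e-08). Because the strand setting of the counting is not given in the sources used here, reads of an overlapping gene on the other strand cannot be told apart from Ap1s1 reads.

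**Figure D1:**
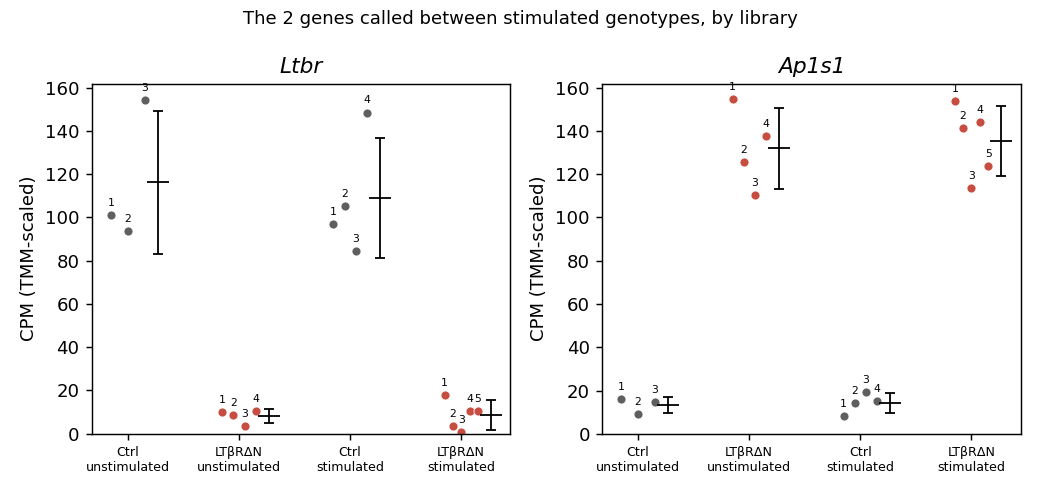
CPM of Ltbr (left) and Ap1s1 (right) by group, 1 point per library with its replicate number, and bars showing the mean ± SD. Stimulated LTβRΔN libraries lie between 0.705 and 18.1 CPM for Ltbr and between 113 and 154 CPM for Ap1s1, apart from the control libraries in both treatments.

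In unstimulated libraries the log2 fold change was -3.80 for Ltbr (edgeR adjusted p = 0.000109) and 3.32 for Ap1s1 (edgeR adjusted p = 1.81e-07). The stimulated and unstimulated genotype effects differed by 0.08 log2 units for Ltbr (interaction, edgeR unadjusted p = 0.889) and by -0.07 for Ap1s1 (edgeR unadjusted p = 0.835). Across all tested genes the interaction between genotype and treatment reached an adjusted p-value under 0.05 for 0 genes in edgeR, while 342 genes had an unadjusted p below 0.05. Around Ap1s1, 12 of 24 genes within 500 kb were tested and 0 were called, and the log2 fold changes lay between -2.09 for Pop7 and 1.85 for Trip6. Both were weakly counted, with means of 3.45 and 2.46 CPM and standard errors of 1.17 and 1.21. Around Ltbr, 21 of 36 genes within 500 kb were tested and 0 were called, with log2 fold changes between -0.79 for Zfp384 and 1.38 for Vwf. These too were weakly counted, with means of 4.43 and 0.914 CPM and standard errors of 0.722 and 1.73. In each region 1 tested neighbour had an unadjusted p below 0.05, Znhit1 near Ap1s1 (log2 fold change -0.43, edgeR adjusted p = 0.719) and Scnn1a near Ltbr (-0.28, edgeR adjusted p = 0.760). Tnfrsf1a, which encodes the main TNF receptor and lies near Ltbr, had 1061 ± 150 CPM (SD, n = 4) in control and 1161 ± 52.5 CPM (SD, n = 5) in LTβRΔN neutrophils.

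Among the 9213 genes, 591 reached an unadjusted p below 0.05 (6.41%, where 461 would be expected with no differences), 284 higher (3.08%) and 307 lower (3.33%) in LTβRΔN neutrophils. Over all tested genes the median was -0.011 log2 units, and that of well-counted genes was -0.020. The 5th to 95th percentile of well-counted genes ran from -0.48 to 0.43. Only 24 well-counted genes had an estimate beyond 2-fold, 9 higher and 15 lower, and each of them had a mean of at most 101 CPM. The libraries of the groups did not overlap for 60 genes that were higher (0.651%) and 61 that were lower (0.662%) in LTβRΔN neutrophils, and for 54 well-counted genes in either direction (1.30%). With exchangeable labels, a fraction of about 0.00794 of genes would separate in each direction, which is above the shares seen. Lack of overlap in a single gene therefore does not by itself mark a difference.

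**Figure D2:**
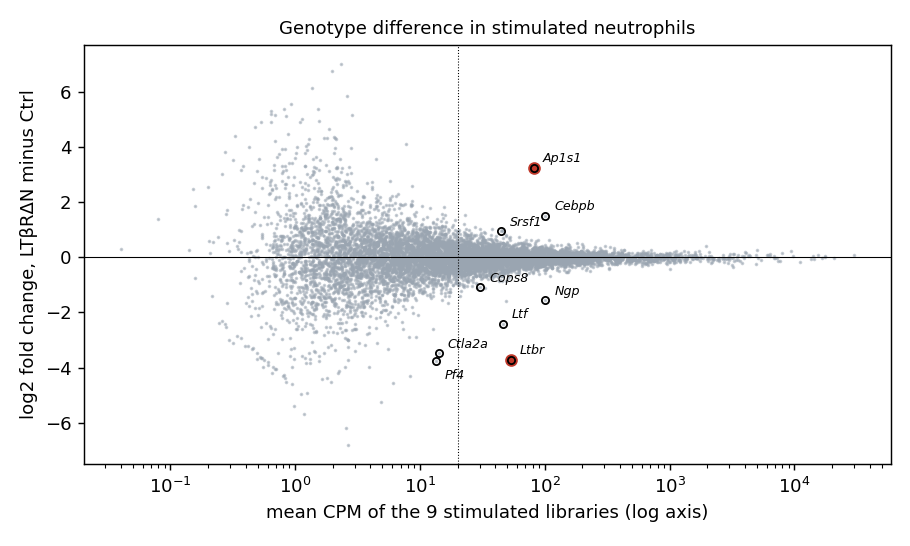
Log2 fold change between stimulated LTβRΔN and control neutrophils against the mean CPM of the 9 libraries on a log axis, 1 point per gene with counts in both groups. Filled red points are Ltbr at -3.72 and Ap1s1 at 3.25, open circles are other genes named in the text, and the dotted line marks 20 CPM.

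The effect size that the libraries could exclude depended on how well a gene was counted. For each gene a 95% interval of the log2 fold change was taken from the edgeR fit, and the largest fold inside it, in either direction, is the smallest fold that the data exclude. Over the 4141 well-counted genes the median of this bound was 1.56-fold, with 1.28-fold at the 10th and 2.16-fold at the 90th percentile. The interval lay inside 2-fold for 3514 genes (84.9%), inside 1.5-fold for 1739 genes (42.0%) and inside 4-fold for 4125 genes (99.6%). These intervals are per gene and not adjusted for the number of genes. By a pair of one-sided tests on the same fit, equivalence to within 2-fold held at an adjusted p-value under 0.05 for 3431 well-counted genes (82.9%). Equivalence to within 1.5-fold held at the same threshold for fewer, 1027 well-counted genes (24.8%). For the interval alone the median half-width was 1.38-fold.

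Precision followed the level of the gene. In the 2606 genes below 5 CPM the median half-width was 6.60-fold and 0 genes were held inside 2-fold, so 2-fold differences were not excluded for any of them. In this class 200 genes (7.67%) had an unadjusted p below 0.05. Between 5 and 20 CPM (2466 genes) the half-width was 2.18-fold and 9.25% lay inside 2-fold, and between 20 and 100 CPM (2751 genes) it was 1.47-fold with 77.5% inside 2-fold. At 100 to 1000 CPM (1224 genes) the half-width was 1.24-fold and 99.3% lay inside 2-fold. In the 166 genes at 1000 CPM and over it was 1.18-fold, and Fos, an early response factor, alone had an interval that reached past 2-fold, to 2.27-fold.

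**Figure D3:**
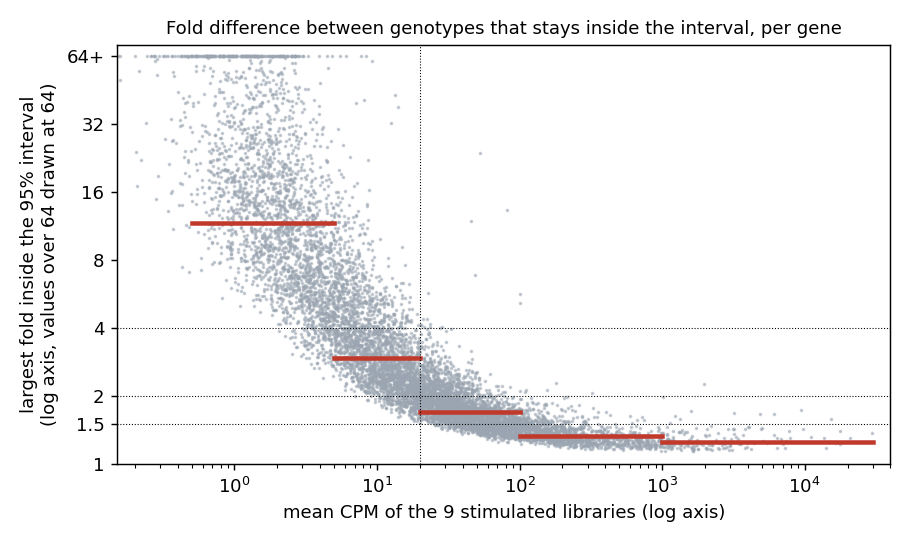
Largest fold difference inside the 95% interval against the mean CPM of the 9 libraries, 1 point per gene, both axes logarithmic. Red bars are medians of the 5 expression classes and fall from 11.7-fold below 5 CPM to 1.25-fold at 1000 CPM and over, and dotted lines mark 1.5-fold, 2-fold, 4-fold and 20 CPM.

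The narrowest intervals belonged to Lsp1, Coro1a, Sh3bgrl3, Grina and Taldo1. Lsp1, an F-actin-binding protein of leukocytes, had 2748 ± 70.2 CPM (SD, n = 4) in control and 2620 ± 123 CPM (SD, n = 5) in LTβRΔN libraries, and differences over 1.18-fold were excluded. Coro1a, an actin-binding coronin, and Taldo1, the transaldolase of the pentose phosphate pathway, were held inside 1.18-fold and 1.16-fold. The widest intervals of well-counted genes were those of Traf1, Slco4a1, Bcas3, Camp and Parp6. Traf1, a TNF receptor adaptor, had a log2 fold change of -0.57 with an interval from -2.06 to 0.92.

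Abundant transcripts differed in how tightly they were held. Nfkbia, the inhibitor IκBα, had 17526 ± 899 CPM (SD, n = 4) in control and 17628 ± 1164 CPM (SD, n = 5) in LTβRΔN neutrophils, and its interval ran from -0.29 to 0.30. Socs3, a feedback inhibitor of IL-6 signalling, had an interval from -0.38 to 0.48. Il1b, the most abundant cytokine transcript among those listed, had one from -0.39 to 0.33. Zfp36, which destabilizes cytokine mRNA, was held less tightly, with an interval from -0.51 to 0.67. Farthest from 0 among genes at 1000 CPM and over were the intervals of Fos, Il23a and Dusp1, which reached 2.27-fold, 1.99-fold and 1.73-fold.

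In 31 gene lists outside mitochondria and reactive oxygen species, 823 genes were tested, and Ltbr and Ap1s1 were the called members. In the other 29 lists edgeR called 0 members, while DESeq2's Wald test called Srsf1 as well. An unadjusted p below 0.05 was found for 48 of the 823 members (5.83%, against 6.41% of all tested genes), 23 higher and 25 lower. Of the 621 well-counted members, 554 (89.2%) had an interval inside 2-fold, against 84.9% of all well-counted genes. List medians lay between -0.17 and 0.16, against -0.011 for all tested genes.

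**Figure D4:**
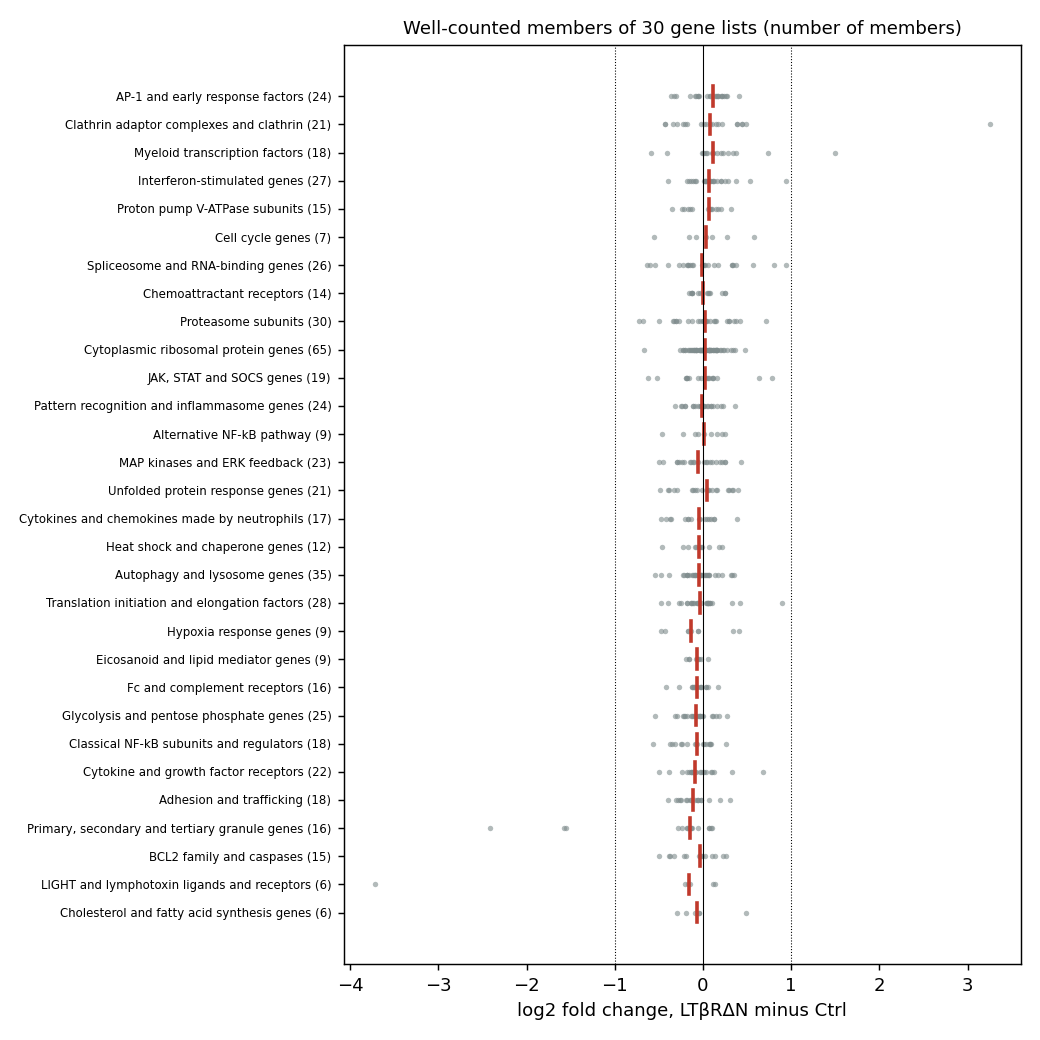
Log2 fold change between stimulated LTβRΔN and control neutrophils of the well-counted members of 30 gene lists, 1 point per gene, with the list median as a red bar and the number of members in brackets. Points outside the dotted 2-fold lines are Ltbr, Ap1s1, Cebpb and the granule genes Ltf, Camp and Ngp.

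Ligands and receptors of the pathway other than Ltbr were not called. Tnfsf14, which encodes LIGHT, had 134, 110, 114 and 157 CPM in control and 142, 82.8, 132, 176 and 165 CPM in LTβRΔN libraries. These groups overlapped, and the interval of the log2 fold change ran from -0.27 to 0.49. Ltb, the lymphotoxin β subunit, had 595 ± 43.8 CPM (SD, n = 4) in control and 528 ± 57.5 CPM (SD, n = 5) in LTβRΔN neutrophils, with an interval from -0.39 to 0.04. Tnfrsf14, which encodes HVEM, the other receptor of LIGHT, had 4.05 ± 1.91 CPM (SD, n = 4) and 6.19 ± 3.88 CPM (SD, n = 5), and its interval from -0.78 to 2.04 left a wide range. Lta, the lymphotoxin α subunit, was more uncertain still, with an interval from -3.18 to 1.53.

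Signalling genes downstream of the receptors showed no call. Of 10 tested members of the alternative NF-κB pathway, 5 lay above 0 and 8 of the 9 well-counted ones were held inside 2-fold. The exception was Traf3, an adaptor that restrains NIK, with an interval from -1.27 to 0.33. Birc3, the ubiquitin ligase cIAP2, had an interval from -0.44 to 0.25. Of 23 classical NF-κB genes, 8 lay above 0, and 16 of 18 well-counted members were held inside 2-fold. In the JAK, STAT and SOCS list, 15 of 19 well-counted members lay inside 2-fold. Jak2, the kinase of the GM-CSF receptor, had 56.1, 66.7, 49.9 and 63.0 CPM in control and 64.8, 101, 76.1, 88.5 and 125 CPM in LTβRΔN libraries. LTβRΔN libraries 2 to 5 were above every control library and replicate 1 lay within their range (log2 fold change 0.64, standard error 0.203, edgeR adjusted p = 0.636).

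Genes of neutrophil effector functions had 0 calls by edgeR or DESeq2. For Fc and complement receptors 15 of 16, for chemoattractant receptors 14 of 14 and for adhesion and trafficking genes 17 of 18 well-counted members lay inside 2-fold. Fermt3, the kindlin that activates β2 integrins, had an estimate of -0.40 log2 units (standard error 0.148, edgeR adjusted p = 0.636). Tyrobp, the adaptor DAP12, had an interval from -0.23 to 0.18, and Csf3r, the G-CSF receptor, one from -0.31 to 0.14.

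Estimates lay above 0 for 48.7% of all tested genes. Of 37 interferon-stimulated genes 27 were above 0 in each of the 4 scalings, with a median log2 fold change of 0.07. With single libraries left out that median ran from -0.0026 to 0.15. Of these genes 2 had an unadjusted edgeR p below 0.05, Oas2 and Oasl2. Oas2, a sensor of double-stranded RNA, had 18.0, 44.1, 33.6 and 26.5 CPM in control and 53.6, 40.7, 90.2, 38.2 and 72.1 CPM in LTβRΔN libraries, and the groups overlapped (log2 fold change 0.94, standard error 0.295, edgeR adjusted p = 0.636). Of 31 AP-1 and early response factors 21 were above 0, with a median of 0.16 and 0 members called. Other lists leaned below 0. Above 0 were 5 of 29 glycolysis and pentose phosphate genes, 4 of 21 adhesion genes and 4 of 17 Fc and complement receptors. Genes of a list are read from the same libraries, so these counts are no replicates.

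Several regulators had large estimates without passing the adjustment. Cebpb, a myeloid transcription factor of stimulated neutrophils, had 83.7, 53.1, 39.9 and 26.3 CPM in control and 197, 305, 59.9, 74.5 and 70.5 CPM in LTβRΔN libraries. LTβRΔN replicates 1 and 2 were the high ones, and the other 3 lay within the control range (log2 fold change 1.5, standard error 0.423, edgeR adjusted p = 0.636). Without stimulation Cebpb had 23.6 to 55.7 CPM in 3 control and 99.2 to 183 CPM in 4 LTβRΔN libraries (log2 fold change 2.11, edgeR adjusted p = 0.553). Bmf, a BH3-only protein that promotes apoptosis, had 0.946, 13.5, 4.76 and 7.37 CPM in control and 23.0, 24.4, 24.0, 12.1 and 31 CPM in LTβRΔN libraries. Only LTβRΔN replicate 4 and control replicate 2 overlapped (log2 fold change 1.81, standard error 0.542, edgeR adjusted p = 0.636). Unstimulated libraries had 2.05 to 7.14 CPM of Bmf in control and 13.2 to 23.2 CPM in LTβRΔN neutrophils (log2 fold change 2.22, not called by edgeR). Hif1a, the oxygen-regulated transcription factor, had 254 to 257 CPM in the 4 control and 292 to 381 CPM in the 5 LTβRΔN libraries without overlap, an estimate of 0.41 log2 units (standard error 0.123, edgeR adjusted p = 0.636) whose interval excluded more than 1.58-fold.

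Protein synthesis, protein breakdown and sugar metabolism had 0 called members. Of 65 well-counted cytoplasmic ribosomal protein genes 64 were held inside 2-fold, and 43 of 80 tested members lay above 0. Rpsa, the member with the smallest p-value, had an estimate of -0.67 log2 units (standard error 0.245, edgeR adjusted p = 0.636), and near-identical copies of ribosomal protein genes could share reads with it. Of 30 well-counted proteasome subunits 25 lay inside 2-fold. Psmd12, a lid subunit, had 45.1, 46.0, 39.3 and 38.6 CPM in control and 33.6, 27.5, 25.4, 24.2 and 21.7 CPM in LTβRΔN libraries without overlap (log2 fold change -0.68, standard error 0.213, edgeR adjusted p = 0.636). Of 25 well-counted glycolysis and pentose phosphate genes 23 lay inside 2-fold, and Pkm2, the pyruvate kinase, had a log2 fold change of -0.22 (edgeR adjusted p = 0.762). Clathrin and adaptor subunits other than Ap1s1 had 0 calls, with 15 of 21 well-counted members of the list inside 2-fold.

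Sensing and cytokine genes of the neutrophil had 0 calls by edgeR or DESeq2. Of the well-counted members, 20 of 22 cytokine and growth factor receptors, 23 of 24 pattern recognition and inflammasome genes and 13 of 17 cytokine and chemokine genes had intervals inside 2-fold. Cd14, the co-receptor of TLR4, had an interval from -0.37 to 0.32, while Tlr5, the flagellin receptor, was weakly counted and had an estimate of -1.19 (edgeR adjusted p = 0.773). Cxcl10, a chemokine for CXCR3, had 198, 199, 216 and 129 CPM in control and 117, 171, 139, 119 and 120 CPM in LTβRΔN libraries. All but 1 of the control libraries lay above all LTβRΔN libraries, and the interval ran from -1.09 to 0.15. All 23 well-counted MAP kinase and ERK feedback genes and all 9 eicosanoid genes lay inside 2-fold.

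Survival, lysosome and stress genes also had 0 calls by edgeR. Of the well-counted members, 14 of 15 BCL2 family and caspase genes, 30 of 35 autophagy and lysosome genes, 14 of 15 V-ATPase subunits, 11 of 12 chaperone genes, 18 of 21 unfolded protein response genes and 8 of 9 hypoxia response genes lay inside 2-fold. Mcl1, the survival factor on which neutrophils depend, had an interval from -0.34 to 0.32. Npc1, the lysosomal cholesterol transporter, had 17.3, 17.8, 20.7 and 16.9 CPM in control and 17.4, 4.58, 5.64, 4.49 and 3.10 CPM in LTβRΔN libraries. LTβRΔN replicate 1 stood at the control level and the other 4 below it (log2 fold change -1.41, standard error 0.459, edgeR adjusted p = 0.636).

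Among granule genes 13 of 16 well-counted members lay inside 2-fold, and the other 3 were Ltf, Camp and Ngp. Lyz2, lysozyme M and the most abundant of them, had an interval from -0.51 to 0.04. Of 18 well-counted myeloid transcription factors 15 lay inside 2-fold, with Cebpb the widest at 5.19-fold. Translation factors (25 of 28), early response factors (23 of 24), interferon-stimulated genes (25 of 27), spliceosome and RNA-binding genes (19 of 26), cholesterol and fatty acid synthesis genes (4 of 6) and cell cycle genes (5 of 7) complete the lists. Cell cycle genes were mostly below the filter, as 14 of 38 were tested.

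The 8 smallest p-values in each direction named 16 genes, of which 5 had 0 counts in all libraries of a group and are given no fold. These were Rpa1, 1810011H11Rik, Sgsm3 and Tesk1, at 0 in control, and Pgm3, at 0 in LTβRΔN libraries, with means of 1.36 to 3.14 CPM over the 9 libraries. Apart from Ltbr and Ap1s1, the other 9 had edgeR adjusted p-values of 0.337 to 0.518 and means of at most 87.9 CPM. Srsf1, a splicing factor, had 27.0, 31.1, 34.1 and 24.6 CPM in control and 76.6, 36.1, 59.2, 56.6 and 54.2 CPM in LTβRΔN libraries without overlap (log2 fold change 0.94, standard error 0.219, edgeR adjusted p = 0.337). Srpk2, a kinase of such splicing factors, had 64.5 to 68.8 CPM in control and 76.2 to 124 CPM in LTβRΔN libraries (log2 fold change 0.63, edgeR adjusted p = 0.518). Of the 11 of these 16 genes with counts in both groups, 9, Ltbr and Ap1s1 among them, had an estimate of the same sign in unstimulated libraries. The exceptions were Srsf1 and Srpk2, with unstimulated estimates of -0.19 and -0.38. The difference between treatments was not called by edgeR for either gene (unadjusted p = 0.00181 and 0.00039). For the same-sign count, the share over all tested genes is not given here. Numbers in the column names recur between treatments within a genotype, so that count is no replication. Cops8, a COP9 signalosome subunit, had 47.7, 49.6, 36.1 and 37.7 CPM in control and 21.8, 18.9, 14.1, 22.0 and 24.0 CPM in LTβRΔN libraries without overlap (log2 fold change -1.08, standard error 0.247, edgeR adjusted p = 0.337). Cndp2, a cytosolic dipeptidase, also did not overlap, with 6.84 to 26.1 CPM in control and 3.10 to 6.34 CPM in LTβRΔN libraries. Gcap14 had 17.7 to 41.1 CPM in control and 5.81 to 19.3 CPM in LTβRΔN libraries, which overlapped (log2 fold change -1.40, edgeR adjusted p = 0.518).

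DESeq2's Wald test on the same genes called 14 (0.152%), 7 in each direction. Both edgeR calls were among them, and the other 12 were Srsf1, Arhgef4, Cops8, Cndp2, Pf4, Ctla2a, the 5 genes at 0 in a group, and Bcl9, which was counted in 1 of the 5 LTβRΔN libraries. DESeq2 adjusted p-values were 0.0303 for Srsf1, 0.0327 for Cops8, 0.0237 for Cndp2, 0.00613 for Pf4 and 0.0301 for Ctla2a. Arhgef4 had at most 2.37 CPM in control and 4.70 to 26.0 CPM in LTβRΔN libraries (edgeR adjusted p = 0.352, DESeq2 adjusted p = 0.00195).

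Pf4, the platelet chemokine, had 11.4, 7.59, 86.9 and 4.49 CPM in control and 2.49, 1.11, 2.82, 0.898 and 3.49 CPM in LTβRΔN libraries. Control replicate 3 stood far above the others, and the groups did not overlap (log2 fold change -3.75, standard error 0.811, edgeR adjusted p = 0.337). Without control replicate 3 the log2 fold change was -1.89 (edgeR adjusted p = 0.712). Ctla2a, an inhibitor of cysteine proteases, had 18.0, 1.66, 86.9 and 7.37 CPM in control libraries, with the same replicate highest. Its log2 fold change was -3.47 with and -1.79 without that library. Without control replicates 1 and 3 together, chosen after seeing the data, it was -0.80 for Ctla2a and -1.51 for Pf4. Summed over 8 platelet markers the control libraries had 58.0, 11.2, 228 and 9.36 CPM, against 8.10 to 12.7 CPM in LTβRΔN libraries. All 7 platelet markers tested had estimates below 0 and 4 had an unadjusted p below 0.05, but edgeR called 0 of them and DESeq2 called Pf4. The part of platelet RNA in these decreases was not tested.

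Ltf and Camp are granule genes that immature neutrophils transcribe. Ltf, lactoferrin, had 33.1, 25.1, 187 and 88.5 CPM in control and 7.48, 6.19, 12, 21.6 and 31.8 CPM in LTβRΔN libraries, and the groups overlapped (log2 fold change -2.41, standard error 0.563, edgeR adjusted p = 0.337). Camp, cathelicidin, had 33.5, 9.25, 196 and 70.8 CPM against 16.2 to 40.4 CPM (log2 fold change -1.58, edgeR adjusted p = 0.636). Without control replicate 3 these values were -1.64 for Ltf and -0.55 for Camp. Immature neutrophil markers summed to 169, 102, 827 and 357 CPM in control and to 95.1 to 155 CPM in LTβRΔN libraries, with replicate 3 again highest. The LTβRΔN range held the control value of 102 CPM. Of the 7 markers tested, 1 had an estimate above 0, and the median log2 fold change was -1.58. An unadjusted edgeR p below 0.05 was found for 3, Ltf, Camp and Ngp, all lower in LTβRΔN libraries. Ngp had a log2 fold change of -1.56 (edgeR adjusted p = 0.636). None of the markers tested was called by edgeR. A difference in the number of immature cells and one in RNA per cell cannot be told apart in these bulk samples.

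**Figure D5:**
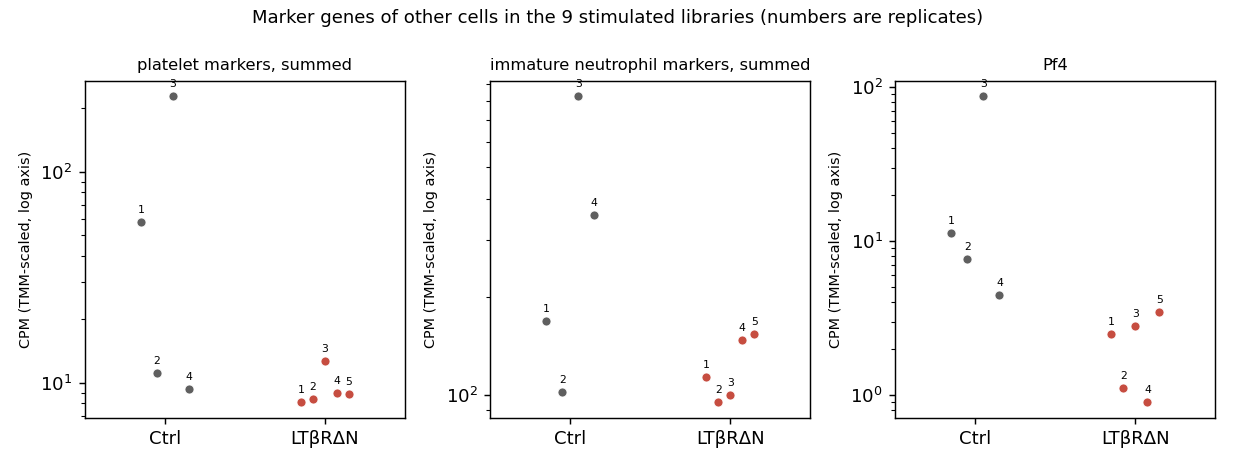
Summed CPM of 8 platelet markers, of 12 immature neutrophil markers and CPM of Pf4 in the 9 stimulated libraries on log axes, 1 point per library with its replicate number. Control replicate 3 is highest in each panel, at 228, 827 and 86.9 CPM.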

How the data were processed

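The authors deposited 1 table of HTSeq counts, whole numbers of reads per gene symbol without normalization, for the 16 libraries. The submitters' processing notes name Bowtie 1.0.0, TopHat 1.4.1, HTSeq 0.7.1 and mm10. The strand setting is not given in the sources used here. Samples were grouped by their genotype and treatment labels. Genes were kept by filterByExpr (minimum count 10, minimum total 15), which left 9213 of 23337. All 16 libraries entered 1 edgeR 4.0.16 quasi-likelihood fit (R 4.3.3) with TMM factors and 1 coefficient per group, and the contrast of stimulated LTβRΔN against stimulated Ctrl was adjusted by Benjamini-Hochberg at 0.05. Standard errors came from the log2 fold change and the F statistic, and 95% intervals from the t quantile at the total degrees of freedom. Genes with 0 counts throughout a group got no interval. CPM use TMM factors. Totals of the 9 stimulated libraries were 1506153 to 11023928 counts, and intervals cover the spread between libraries. The fit was tested on simulated data. Pairs of libraries of each stimulated group differed by more than counting error, so none was counted as a repeat.

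Genes to name were chosen from those called by edgeR or DESeq2 1.42.0, the 8 smallest p-values per direction, receptors and ligands, in each list the highest and the smallest-p member, the 5 narrowest and 5 widest intervals, and tested neighbours within 500 kb. Named outside this rule, after their values were seen, were Oasl2, Ngp, Fos, Il23a and the markers. The members and the 31 pathway and 10 marker lists were chosen with earlier results of these data known. The values of 1 pathway list are not reported here. Gene places are from GENCODE M21 (97.8% of symbols matched). Alternatives were other scalings, filters, tests (limma 3.58.1, DESeq2, sva 3.50.0), thresholds, thinning and single libraries left out, and the removal of control replicates 1 and 3 together was chosen after seeing the data.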

Additional observations from a re-analysis of the deposited data

Results flagged for a closer look

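In 114 sets of values over a stimulated group, 10 held a library that stood apart by Dixon's test, where about 1 in 20, or 5.7, would be flagged by chance. LTβRΔN replicate 2 had 8575222 counts against at most 2728981 in the other 4. Control replicate 3 had 86.9 CPM of Pf4 against 4.49 to 11.4 in the other 3. LTβRΔN replicate 3 had 12.7 CPM of summed platelet markers against 8.10 to 8.98, and 6.34 CPM of Cndp2 against 3.10 to 3.74. Control replicate 1 had the lowest mean log2 CPM for cytokine and growth factor receptors (7.51), hypoxia response genes (4.13), spliceosome and RNA-binding genes (4.85) and eicosanoid genes (5.10). For MAP kinases and ERK feedback genes, control replicate 2 was highest in its group with 6.10 and LTβRΔN replicate 5 lowest with 5.68.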

How the results depend on the processing

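Ltbr and Ap1s1 were the 2 calls under each scaling, under limma, thinning, a surrogate variable and the stimulated libraries alone, and with each library left out in turn (2 calls each time). A filter of 10 counts in each stimulated library removed Ltbr by construction and left 1 call, DESeq2 called 14, and an unadjusted p-value under 0.01 was met by 136 genes. The count inside 2-fold among well-counted genes was 3270 to 3465 without 1 library, 1739 inside 1.5-fold and 2323 at a minimum of 50 CPM, where fewer genes enter. Without control replicates 1 and 3 together, chosen after seeing the data, 3161 genes lay inside 2-fold. List medians that moved by more than their spread were -0.20 to -0.067 for classical NF-κB, -0.14 to 0.016 for cytokines and -0.19 to -0.0057 for heat shock genes without 1 library, and 0.076 for early response factors without both control replicates. The cause was not tested. The number in the column names recurs within a genotype only, so it cannot enter the genotype contrast as a fixed block. It was also entered as a random replicate block in limma, where libraries with the same number correlated at 0.1 after the group means were fitted. In that fit 2 genes were called, 3328 lay inside 2-fold, and the estimate for Tnfsf14 reversed to -0.076. The limits are the low depth of LTβRΔN libraries, few libraries per group, and weakly counted genes.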
